A study of Mus musculus with 9 samples.

Results

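Formative and primed pluripotency factors are genes that rise when embryonic stem cells leave the naive state and prepare for lineage choice. The 10 examined here were Foxd3, Pou3f1, Otx2, Fgf5, Lef1, Sox3, Sox4, Zic2, Sall2 and Lin28b, picked by name from a table of 38940 genes, and each matched 1 row. DNA methyltransferases were left out of the set. Their levels were compared in mouse embryonic stem cells of 3 genotypes with 3 libraries each. Control cells carried floxed alleles of both Yap and Taz (Yapfl/fl/Tazfl/fl). Taz KO cells were deleted for Taz with Yap still floxed (Yapfl/fl/Taz-/-), and double KO cells were described and titled as deleted for both, although their genotype field repeats the Taz KO genotype. YAP and TAZ are transcriptional co-activators at the end of the Hippo pathway that act through TEAD factors. Groups follow the titles. A Cre-ERT2 transgene under a CAG promoter was introduced with piggyBac, and 500 nM 4-OHT induced recombination. This dose is listed for all 3 groups, control included, but the labels do not say whether control cells received Cre or 4-OHT. Nor do they say whether a line is 1 clone. Everything was grown on fibronectin in N2B27 with Lif (4 ng/ml), the MEK inhibitor PD0325901 (0.4 µM) and the GSK3 inhibitor CHIR99021 (3 µM). The labels do not give separate cultures for the replicates, so p-values rest on library-to-library spread that could be technical.

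Naive stem cells in inhibitors and Lif resemble the epiblast before implantation. On release, FGF/ERK signalling and the repressor TCF7L1 lower the naive genes and move them through a formative state, in which OTX2 and POU3F1 (OCT6) redirect POU5F1 to new enhancers and FOXD3 remodels enhancers. Primed cells then express Fgf5, Zic2, Sox3 and Lin28b more strongly. The medium used here holds this transition back, so these are levels under naive culture and not during exit.

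The members lie on chromosomes 4 (Foxd3 and Pou3f1), 14 (Otx2, Zic2 and Sall2), 5, 3, X, 13 and 10. Foxd3 (ENSMUSG00000067261) is a single-exon gene at chr4:99656299-99658622 on GRCm38, and Pou3f1 (ENSMUSG00000090125) is a single-exon gene at chr4:124656807-124660655. Both are on the plus strand. Zic2 (ENSMUSG00000061524) spans chr14:122475435-122479852, plus strand, with 3 exons, and shares the chromosome with Otx2 (ENSMUSG00000021848), chr14:48657677-48673819, and Sall2 (ENSMUSG00000049532), chr14:52311172-52328762, both on the minus strand. Fgf5 (ENSMUSG00000029337) lies at chr5:98254184-98277030 and Lef1 (ENSMUSG00000027985) at chr3:131110471-131224356 on the plus strand. The single-exon genes Sox3 (ENSMUSG00000045179), chrX:60891366-60893430, and Sox4 (ENSMUSG00000076431), chr13:28948919-28953713, and the 5-exon Lin28b (ENSMUSG00000063804), chr10:45376620-45486395, are on the minus strand. RefSeq promoter windows on GRCm38.p6 matched 7 of the 10 members. From position 250 to 21 before the annotated start, 3 are shown because they belong to a member that fell in double KO (Foxd3), the member with the largest ratio there (Fgf5) and one that did not pass any test (Sox4). Capitals mark matches to 7 motifs searched on both strands, none of which overlapped in these windows: TEAD GGAATG, AP-1 TGAGTCA, CRE TGACGTCA, E-box CACGTG, OCT ATGCAAAT, SOX ATTGTT and TCF/LEF CTTTGA.
Foxd3, chr4:99656049-99656278, plus strand: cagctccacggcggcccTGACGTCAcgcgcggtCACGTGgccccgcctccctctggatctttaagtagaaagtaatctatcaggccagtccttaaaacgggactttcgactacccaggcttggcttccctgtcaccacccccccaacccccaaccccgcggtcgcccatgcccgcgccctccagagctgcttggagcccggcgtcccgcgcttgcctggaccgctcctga
Fgf5, chr5:98253934-98254163, plus strand: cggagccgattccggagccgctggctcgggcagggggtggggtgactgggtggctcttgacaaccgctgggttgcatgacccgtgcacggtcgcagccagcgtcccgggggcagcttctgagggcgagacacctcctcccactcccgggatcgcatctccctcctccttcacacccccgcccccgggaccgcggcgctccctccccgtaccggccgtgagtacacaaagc
Sox4, chr13:28953720-28953949, minus strand: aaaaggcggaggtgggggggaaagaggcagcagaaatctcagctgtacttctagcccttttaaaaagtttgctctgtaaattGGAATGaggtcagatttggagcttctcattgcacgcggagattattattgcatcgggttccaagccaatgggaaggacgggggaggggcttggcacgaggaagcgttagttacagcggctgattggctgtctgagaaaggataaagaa
The Foxd3 window held a CRE at 233 and an E-box at 217 bases before the start, motifs that occurred in 1.28% and 5.35% of all 32851 windows. The Sox4 window held a TEAD motif at 168 bases, as did 11.8% of all windows. None of the 7 was found in the Fgf5 window. The other motifs occurred in 4.17% (AP-1), 1.53% (OCT), 8.98% (SOX) and 13% (TCF/LEF) of all windows.

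A gene's level is given as FPKM as deposited, fragments per kilobase scaled by a median-of-ratios size factor per library. This allows levels of different genes to be compared per length. Libraries held 19.1 to 24.0 M recovered reads. A difference is a log2 fold change of FPKM + 0.5 with its standard error from limma, which understates changes of low genes, and passed at a Benjamini-Hochberg adjusted p under 0.05 over 11674 genes whose mean reached 1 FPKM. Of the 10 members, 8 entered that test. Sox3 (0.304) and Fgf5 (0.158) lay below it, and Pou3f1 (1.03) lay just above. Same-numbered libraries deviated together, so the adjusted p with replicate number as a block is given where it changed a call. Of all tested genes, 12.4% were called higher and 12.9% lower in double KO against control (25.3% in all), and 24.2% and 28.1% with the block (52.4% in all). For Taz KO against control the shares were 0.72% and 0.565% (1.28%), and 7.78% and 4.05% with the block (11.8%). For double KO against Taz KO they were 6.42% and 7.45% (13.9%), and 16.8% and 25.6% with the block (42.4%). When genes from a mean FPKM of 0.1 were admitted (17236 genes), the shares higher and lower were 8.92% and 8.83%, 0.47% and 0.441%, and 4.84% and 4.39% in the same order of comparisons. With the block as well they were 18.4% and 20.3%, 4.29% and 2.54%, and 12.7% and 16.7%. Yap1 was at 4.25 ± 0.334 FPKM in double KO and 18.4 ± 0.573 in the control libraries (SD, n = 3), and Wwtr1, the gene of TAZ, at 13.9 and 12.1 FPKM, a value summed over the whole gene that does not check a deletion within it. The 5 general pluripotency genes summed to 927 to 1250 FPKM per library. Fibroblast markers summed to 1.77 to 10.9 FPKM with Dcn, Lum and Postn at 0.

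Of the 10 members, Zic2 was highest in control cells at 15.3 FPKM, followed by Foxd3 (7.83), Otx2 (6.95) and Lin28b (4.55). The control SDs of Foxd3 (1.01) and Otx2 (2.03) exceeded the gap between them. Lef1, Pou3f1, Sall2 and Sox4 lay between 1.24 and 1.78, also within each other's spread, and Sox3 and Fgf5 were at 0.396 and 0.0481 FPKM. Across the members, the set did not move in 1 direction in any comparison. Of the 8 tested members, 2 fell and none rose in double KO against control, beside 12.9% lower and 12.4% higher of all tested genes. With the block 2 rose and 2 fell, beside 24.2% and 28.1%. None was called in Taz KO against control, beside 1.28% of all tested genes, and 1 rose with the block, beside 7.78%. Against Taz KO, 2 fell in double KO, beside 7.45% of all tested genes, and with the block 2 rose and 4 fell, beside 16.8% and 25.6%. The groups of values did not overlap for 4 of 8 tested members in double KO against control, where 45.6% of all tested genes did not. These counts were 2 of 8 beside 18.7% in Taz KO against control and 4 of 8 beside 30.6% in double KO against Taz KO. The median log2 fold change of the tested members was 0.06 in double KO against control, 0.18 in Taz KO against control and -0.12 in double KO against Taz KO, beside -0.02, 0.01 and -0.04 over all tested genes.

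**Figure D1:**
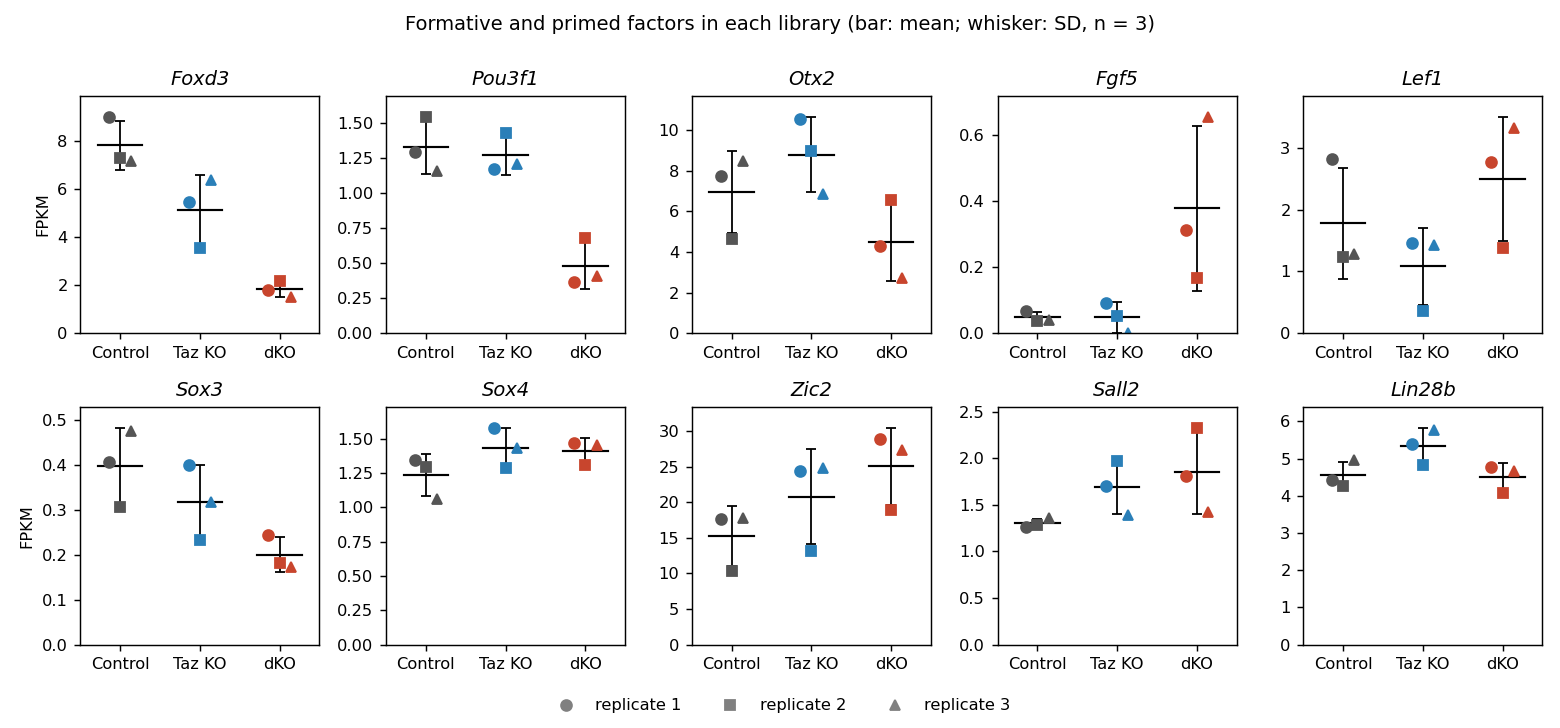
FPKM of each member (y axis, starting at 0) in the 3 libraries of control, Taz KO and double KO (dKO), with marker shapes for replicate numbers, a bar for the mean and whiskers for the SD (n = 3). Foxd3 and Pou3f1 have all 3 double KO points under every other point, while Zic2 has its replicate 2 point lowest in each group.

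Foxd3, a forkhead factor needed in epiblast and neural crest cells, had the strongest fall of the tested members. In control libraries 1, 2 and 3 it was at 8.995, 7.30 and 7.18 FPKM (509, 384 and 331 reads), in Taz KO at 5.48, 3.54 and 6.37, and in double KO at 1.80, 2.16 and 1.53 (93, 123 and 71 reads). All 3 double KO libraries lay below all Taz KO libraries, and these below all control libraries. Double KO cells retained 23.4% of the control mean (log2 fold change -1.84, SE 0.20, adjusted p = 0.000539) and 35.6% of the Taz KO mean (-1.25, SE 0.20, adjusted p = 0.00635). Both calls held in all 9 fits without 1 library. In Taz KO against control the difference was -0.59 (SE 0.20), with adjusted p = 0.218, and 0.0891 with the block. In these bulk libraries, fewer cells that express a gene and less RNA per cell cannot be told apart. The annotated Foxd3 exon shares 89 bases with the miRNA gene Gm23366, listed at 0 in every library, which does not show how reads in those bases were counted.

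Pou3f1 encodes the POU factor OCT6, a partner of OTX2 in formative cells. It was at 1.30, 1.54 and 1.16 FPKM in control, 1.17, 1.43 and 1.21 in Taz KO and 0.365, 0.680 and 0.406 in double KO (24 to 49 reads). The double KO values lay under all 6 others, while control and Taz KO overlapped. Pou3f1 fell to 36.3% of control (-0.91, SE 0.17, adjusted p = 0.00655) and 38.1% of Taz KO (-0.86, SE 0.17, adjusted p = 0.0153). The call against control held in all 9 fits without 1 library, and that against Taz KO was lost without Taz KO 1, Taz KO 3, double KO 1 or double KO 3, with adjusted p of 0.051 to 0.0559. The Taz KO mean was 95.2% of control (-0.05, adjusted p = 0.975). Replicate 2 had the highest value in all 3 groups. An antisense gene, Gm2164, shares 330 of its exon bases; as the strand setting of the counting is not given, reads of such pairs cannot be told apart, here or for Otx2 (Otx2os1, 154 bases) and Lef1 (Gm43352, 1208 bases).

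Otx2, a homeobox factor that starts the formative programme, did not follow the same order. Its values were 7.72, 4.65 and 8.47 FPKM in control, 10.5, 8.95 and 6.85 in Taz KO and 4.28, 6.54 and 2.70 in double KO. Control overlapped with both knockout groups, whereas the 3 double KO values lay below the 3 Taz KO values. The difference of double KO from Taz KO was -0.95 (SE 0.31, adjusted p = 0.0741, 0.0353 with the block, and 0.0586 with the block and genes from a mean FPKM of 0.1), and that from control -0.61 (adjusted p = 0.175). Without double KO 2 the adjusted p against Taz KO was 0.028. This was the 1 call among 9 fits without 1 library, and the others reached up to 0.235, without Taz KO 1. By replicate number, double KO was at 0.554, 1.41 and 0.319 times control. The relative Otx1 averaged 0.502 ± 0.166 FPKM without knockout and 0.473 ± 0.151 in double KO, and the other relative, Crx, averaged 0.0228 and 0.104.

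**Figure D2:**
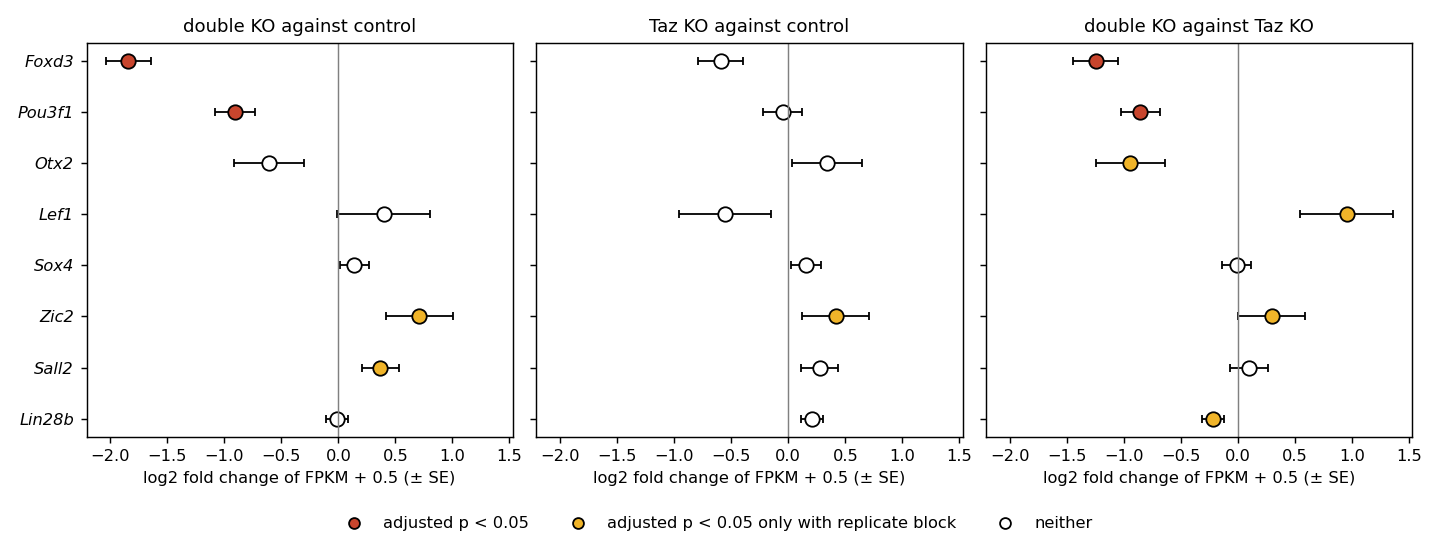
Log2 fold change of FPKM + 0.5 with its SE for the 8 tested members in each comparison, red where the adjusted p is under 0.05, yellow where it is so with the replicate block alone and white otherwise. Foxd3 lies at -1.84 and Pou3f1 at -0.91 in double KO against control, while Zic2 (0.71) and Sall2 (0.37) are yellow on the other side of 0.

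Fgf5, a secreted ligand and the classical marker of the primed epiblast, was nearly silent in control cells, at 0.0671, 0.0361 and 0.0412 FPKM, which were 4, 2 and 2 reads. Taz KO libraries had 5, 3 and 0 reads (0.0916, 0.0521 and 0 FPKM), where a count of 0 allows up to 3 reads or 0.0653 FPKM. Double KO libraries had 17, 10 and 32 reads (0.311, 0.167 and 0.652 FPKM), all above the other 6. Summed over libraries, the ratio of double KO to control was 7.38 at equal size (59 against 8 reads, exact 95% interval 3.51 to 17.9, counting error only). Fgf5 reached a mean of 0.1 FPKM only through double KO, with group means of 0.0481 (control), 0.0479 (Taz KO) and 0.377 FPKM (double KO). Calls made with that filter are therefore no independent support for a rise. Admitting genes from a mean of 0.1 FPKM, limma gave Fgf5 a difference of 0.64 on the log2(FPKM + 0.5) scale with an adjusted p of 0.0476, and 0.0556 with no filter. That call was kept without double KO 2 (0.0164) and lost in the other 8 fits without 1 library, with adjusted p up to 0.117 without control 3. Against Taz KO the adjusted p was 0.0696, and 0.0394 with the block.

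Lef1 encodes a DNA-binding partner of beta-catenin and was measured in cells whose GSK3 was inhibited. It was at 2.82, 1.24 and 1.29 FPKM in control, 1.46, 0.362 and 1.43 in Taz KO and 2.77, 1.38 and 3.32 in double KO. Replicate 2 was the lowest in each group, and all 3 groups overlapped. Double KO against Taz KO gave 0.95 (SE 0.41, adjusted p = 0.152, and 0.0119 with the block), with ratios of 1.91, 3.82 and 2.33 by replicate number. Double KO against control gave 0.40 (adjusted p = 0.503) and Taz KO against control -0.55 (adjusted p = 0.712, 0.164 with the block). Of its relatives, Tcf7l2 rose in double KO against control by 0.40 (adjusted p = 0.0431, lost in 8 of 9 fits without 1 library). Tcf7 (31.8 ± 2.97 FPKM in control) and the repressor gene Tcf7l1 (11.4 ± 0.310) had log2 fold changes of 0.05 and 0.06, with adjusted p of 0.781 and 0.757.

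The SOX members were both low. Sox3, a SOXB1 factor of the epiblast and neural plate, was at 0.407, 0.306 and 0.475 FPKM in control (20, 14 and 19 reads), 0.400, 0.232 and 0.317 in Taz KO and 0.245, 0.182 and 0.173 in double KO (11, 9 and 7 reads). All double KO values lay under the control values, and only the highest of them reached into the Taz KO range. The summed reads gave a ratio of 0.51 to control (27 against 53 reads, exact 95% interval 0.308 to 0.825, counting error only). From a mean FPKM of 0.1, the fit gave -0.35 (SE 0.13, adjusted p = 0.0912, and 0.0397 with the block, beside 20.3% of genes called lower). Sox1, the other low SOXB1 gene, had group means of 0.983 ± 0.296 (control), 0.582 ± 0.238 (Taz KO) and 0.202 ± 0.0223 FPKM (double KO). In that fit without the block it fell in double KO against control (-1.06, SE 0.19, adjusted p = 0.00661). Sox1 gave -0.60 against Taz KO (adjusted p = 0.0855, and 0.0156 with the block) and -0.46 in Taz KO against control (adjusted p = 0.399). Sox2, the SOXB1 gene of the pluripotency core, fell from 226 ± 14.2 to 179 ± 8.51 FPKM (-0.33, adjusted p = 0.0148, 0.0657 without control 1 and 0.0605 without double KO 3).

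Sox4, a SOXC factor, was at 1.35, 1.30 and 1.06 FPKM in control, 1.58, 1.29 and 1.43 in Taz KO and 1.47, 1.31 and 1.46 in double KO, and the groups overlapped. The differences were 0.14 (SE 0.13, adjusted p = 0.449), 0.16 (adjusted p = 0.778) and -0.01 (adjusted p = 0.958) in double KO against control, Taz KO against control and double KO against Taz KO. Its annotation shares 2616 exon bases with the opposite-strand Gm26735, listed at 0 in every library. As the strand setting of the counting is not given, that 0 does not show how reads in the shared bases were counted. Of the other SOXC genes, Sox12 fell in double KO against control by 0.31 on the log2 scale (adjusted p = 0.0425, kept in 2 of 9 fits without 1 library), and Sox11 averaged 11.8 ± 0.963 and 10.6 ± 3.59 FPKM in these groups (adjusted p = 0.57).

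Zic2 encodes a zinc-finger factor that occupies enhancers in primed cells. Values were 17.7, 10.4 and 17.7 FPKM in control, 24.4, 13.1 and 24.9 in Taz KO and 28.9, 18.9 and 27.3 in double KO. All double KO libraries lay above all control libraries, while Taz KO overlapped with both. Double KO was 1.63, 1.82 and 1.54 times control by replicate number, Taz KO 1.38, 1.26 and 1.40 times control, and double KO 1.19, 1.44 and 1.1 times Taz KO. The log2 fold changes were 0.71 (SE 0.29, adjusted p = 0.107, and 0.000195 with the block), 0.42 (0.688, and 0.00986 with the block) and 0.29 (0.537, and 0.013 with the block). Without the block, 1 of 9 fits without 1 library called Zic2 in double KO against control. That was the fit without Taz KO 2 (adjusted p = 0.0461), and the others reached up to 0.279, without control 2. Zic5, next to Zic2, averaged 5.71 ± 1.27 (control) and 6.30 ± 1.09 FPKM (double KO, 0.14, adjusted p = 0.668). Zic1 and Zic4 had group means of at most 0.0154 FPKM.

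Sall2, a zinc-finger factor of the spalt family, was at 1.26, 1.29 and 1.36 FPKM in control, 1.70, 1.98 and 1.39 in Taz KO and 1.80, 2.32 and 1.43 in double KO. Every knockout library lay above every control library, and the knockout groups overlapped with each other. The log2 fold change was 0.37 (SE 0.17, adjusted p = 0.133, 0.044 with the block, and 0.0523 with the block and genes from a mean FPKM of 0.1) in double KO and 0.28 (SE 0.17, adjusted p = 0.596) in Taz KO. The relatives Sall1 and Sall4 were far higher, at 30.2 ± 3.30 and 38.7 ± 3.12 FPKM in control, with log2 fold changes of 0.11 and 0.08 in double KO (adjusted p = 0.672 and 0.54). Sall3, below a mean of 1 FPKM over the 9 libraries, averaged 1.09 ± 0.133, 0.532 ± 0.142 and 0.734 ± 0.250 FPKM across control, Taz KO and double KO. Admitting genes from a mean of 0.1 FPKM, Sall3 gave -0.62 in Taz KO against control (adjusted p = 0.17, and 0.027 with the block) and -0.38 in double KO against control (adjusted p = 0.167, and 0.0444 with the block).

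Otx2, Zic2 and Sall2 share chromosome 14. Of its 386 tested genes, 18.7% were called higher and 5.96% lower in double KO against control, and the median log2 fold change was 0.11 in double KO and 0.10 in Taz KO, compared with -0.02 and 0.01 over all genes. In double KO against Taz KO the chromosome had 6.99% higher and 5.96% lower and a median of 0.00. Both knockout groups shared this shift of the chromosome, and its part in the Zic2 and Sall2 values cannot be told apart from that of the genotype. For chromosome 4, with Foxd3 and Pou3f1, 9.93% of 745 tested genes were called higher and 15.6% lower in double KO against control, and the median was -0.06.

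**Figure D3:**
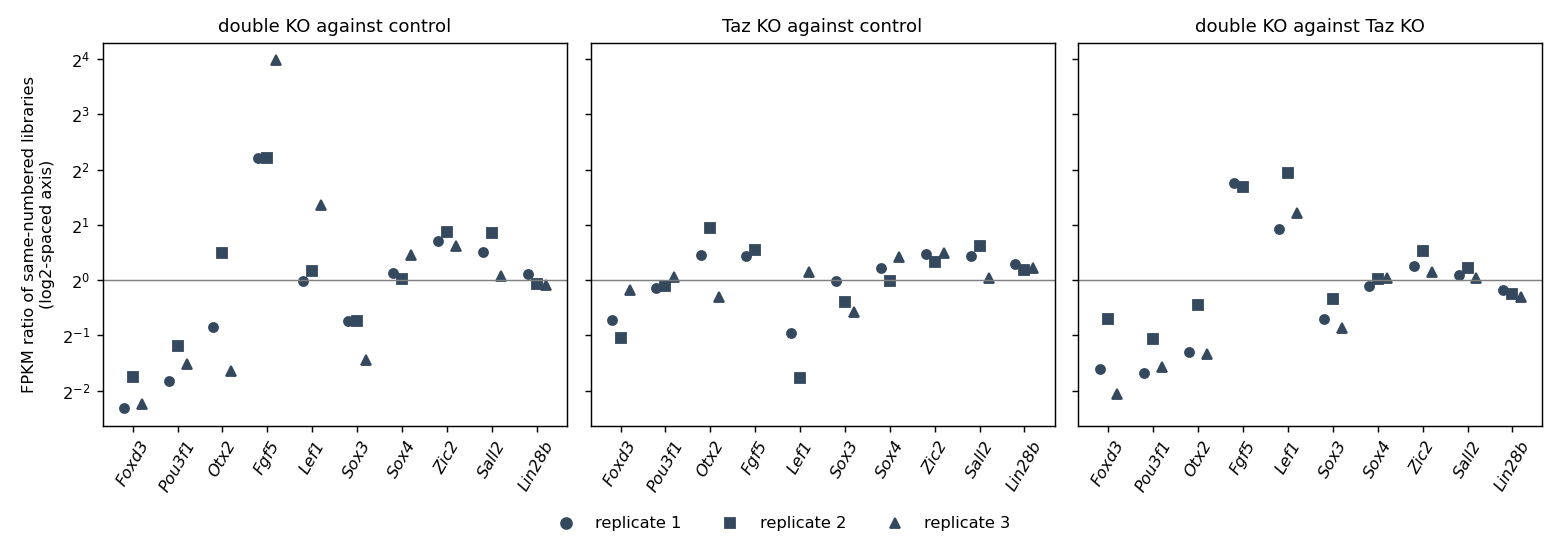
Ratio of FPKM between libraries with the same replicate number (log2-spaced y axis) for the 10 members in each comparison; Fgf5 has no point for replicate 3 with Taz KO because Taz KO 3 had 0 reads. Zic2 lies above 1 in 3 of 3 pairs of every comparison, and Otx2 lies on both sides of 1 against control.

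Lin28b encodes an RNA-binding protein that blocks maturation of let-7 microRNAs and is more abundant in primed than in naive cells. It was at 4.43, 4.27 and 4.96 FPKM in control, 5.39, 4.83 and 5.78 in Taz KO and 4.77, 4.07 and 4.67 in double KO. Control and double KO overlapped, differing by -0.01 on the log2 scale (SE 0.10, adjusted p = 0.934), and every double KO value was below every Taz KO value (-0.22, SE 0.10, adjusted p = 0.165, and 0.0246 with the block). Taz KO was 1.22, 1.13 and 1.17 times control by replicate number (0.21, SE 0.10, adjusted p = 0.441). Its paralog Lin28a was higher, at 87.3 ± 3.11 FPKM in control, and fell to 68.7 ± 8.78 in double KO (-0.35, adjusted p = 0.0338, lost in 6 of 9 fits without 1 library). Of 10 genes around LIN28 and let-7, 2 rose and 2 fell in double KO against control, beside 12.4% and 12.9% of all tested genes. The let-7 targets Hmga2 (0.78, adjusted p = 0.0211) and Arid3b (0.37, adjusted p = 0.0124) rose, and Mycn fell (-0.61, adjusted p = 0.0461, kept in 2 of 9 fits without 1 library) beside Lin28a. The Hmga2 call was lost in 4 of those 9 fits. Both Hmga2 (0.86, adjusted p = 0.0233) and Arid3b (0.46, adjusted p = 0.0106) were also higher in double KO than in Taz KO. There the Hmga2 call was lost in 4 of 9 fits without 1 library (adjusted p up to 0.0852), and that of Arid3b without Taz KO 1 (0.0532). With the block 3 of the 10 rose and 4 fell in double KO against control, beside 24.2% and 28.1% of all tested genes. Against Taz KO 3 rose and 3 fell with the block, beside 16.8% and 25.6%. None of the 10 was called in Taz KO against control (1 higher with the block, beside 7.78%).

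The paralog Foxd1 was at 6.60, 1.74 and 4.27 FPKM in control, 6.92, 1.47 and 4.55 in Taz KO and 13.96, 3.80 and 10.6 in double KO. Replicate 2 was the lowest in each group, and the groups overlapped. Foxd1 gave 1.06 in double KO against control (adjusted p = 0.238, and 6.61e-05 with the block), the opposite sign to Foxd3. Foxd4 was listed at 0 in all 9 libraries, and Foxd2 at no more than 0.0875 FPKM. Pou3f2, Pou3f3 and Pou3f4 had group means of at most 0.167 FPKM, below those of Pou3f1 in every group. Fgf4, the FGF ligand of naive cells, fell from 105.6, 106.4 and 98.5 FPKM to 62.5, 64.9 and 52.6 in double KO (-0.79, adjusted p = 0.00133). Fgf6 was listed at 0 in every library. Of all tested genes, 12.4% were called higher and 12.9% lower in double KO against control (24.2% and 28.1% with the block). Of 25 family relatives 13 were tested. Against control, 1 rose and 4 fell in double KO (2 and 5 with the block) and none was called in Taz KO (2 higher with the block), and 2, Fgf4 and Sox2, fell in double KO against Taz KO (3 higher and 5 lower with the block). In this last comparison 7.45% of all tested genes were called lower, and with the block 16.8% higher and 25.6% lower.

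A list of 21 other formative and primed genes had 15 tested. In double KO against control 5 fell and none rose, where 12.9% of all tested genes were called lower and 12.4% higher. The median log2 fold change was -0.31 beside -0.02 over all genes. With the block 7 fell, where 28.1% of all tested genes were called lower. The list was chosen with earlier results of these data known. The strongest fall was that of Tcf15, a helix-loop-helix gene that marks cells poised to leave the naive state, from 6.12, 4.33 and 3.63 FPKM in control to 2.104, 1.83 and 0.988 (-1.29, SE 0.30, adjusted p = 0.0162, 0.0676 without control 1 and 0.0533 without double KO 3). Mycn, Enc1 (-0.60, adjusted p = 0.0369), Lin28a and Sox12 were the others. The Enc1 call was kept in 3 of 9 fits without 1 library. Utf1, a chromatin factor of pluripotent cells, averaged 73.8 ± 7.62 and 52.4 ± 11.03 FPKM (-0.51, adjusted p = 0.063, and 0.00049 with the block). Fgf15, below a mean of 1 FPKM, averaged 0.491 ± 0.243 (control), 0.510 ± 0.124 (Taz KO) and 0.0246 ± 0.0254 FPKM (double KO). Among genes from a mean of 0.1 FPKM, Fgf15 fell in double KO against control (-0.89, adjusted p = 0.0125) and against Taz KO (-0.94, adjusted p = 0.019). Sfrp2 also fell against control in that fit (-0.50, adjusted p = 0.0364). The calls of Mycn (0.0576) and Sox12 (0.0598) against control were lost there. None of the 15 was called in Taz KO against control (2 higher and 1 lower with the block) or in double KO against Taz KO (6 lower with the block, beside 25.6% of all tested genes).

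The machinery that drives exit from the naive state had 17 tested genes. In double KO against control 4 rose and 2 fell, beside 12.4% and 12.9% of all tested genes. With the block 4 rose and 5 fell, beside 24.2% and 28.1%. Flcn (0.60, adjusted p = 0.0059), whose product with FNIP1 keeps TFE3 out of the nucleus, Fgfr1 (0.48) and Fnip1 (0.47) were among those that rose. The Fnip1 call was kept in 5 of 9 fits without 1 library (adjusted p up to 0.0933). Fgfr1 lies on chromosome 8, where 36.6% of 636 tested genes were called higher. Rbpj, the DNA-binding protein of Notch signalling, fell from 33.4 ± 1.90 to 23.3 ± 0.885 FPKM (-0.51, adjusted p = 0.00152), and Zfp706 from 38.3 ± 0.499 to 27.9 ± 2.35 (-0.45, adjusted p = 0.00804). Of the 17, 1 was called higher and none lower in Taz KO against control, and 1 higher and 2 lower with the block, Jarid2 (-0.27, adjusted p = 0.0091) and Rbpj (-0.18, adjusted p = 0.0429). Against Taz KO, double KO had 1 gene of this list higher, Flcn (0.54, adjusted p = 0.0176), and 3 lower, among them Zfp706 (-0.49, 0.0116) and Rbpj (-0.33, 0.0177). Of all tested genes, 6.42% were higher and 7.45% lower there. With the block 4 of the list were higher and 3 lower, beside 16.8% and 25.6%. The Flcn call was lost without Taz KO 3 (0.0511) and double KO 3 (0.0672), that of Zfp706 without Taz KO 1 (0.0573) and Taz KO 3 (0.0504), and that of Rbpj in 4 of 9 fits without 1 library (up to 0.0697).

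Of 15 naive genes, 4 rose and 4 fell in double KO against control, beside 12.4% and 12.9% of all tested genes. Their median log2 fold change was 0.04. With the block 6 rose and 5 fell, beside 24.2% and 28.1%. In double KO against Taz KO 3 rose and 5 fell with the block, beside 16.8% and 25.6%. Dppa3 (1.12, adjusted p = 0.0306), Klf2 (0.86), Zfp42 (0.70) and Prdm14 (0.28) rose. Klf2 and Zfp42 lie on chromosome 8 and Dppa3 on chromosome 6, where 28.5% of 495 tested genes were called higher. Nr0b1 (-0.88, adjusted p = 0.0186), Fgf4, Klf4 (-0.72) and Nanog (-0.31) fell. The Dppa3 call was kept in 4 of 9 fits without 1 library, those of Nanog and Prdm14 in 2, and that of Nr0b1 was lost without control 3 (0.0662). None of the 15 was called in Taz KO against control (2 higher with the block). Against Taz KO, Klf2 rose in double KO by 0.64 (adjusted p = 0.00476), and Nr0b1, Fgf4, Klf4 and Nanog fell (adjusted p = 0.0477, 0.00635, 0.0442 and 0.0333). Of these, Klf2 and Fgf4 were called in all 9 fits without 1 library, Nr0b1 in 1 (adjusted p up to 0.15), and Klf4 and Nanog in 2 each (up to 0.133 and 0.125). Of the 5 general pluripotency genes, Tdgf1 (-0.53, adjusted p = 0.0358) and Sox2 fell in double KO against control, none was called in Taz KO, and Sox2 fell against Taz KO (-0.34, adjusted p = 0.0242). The Tdgf1 call was lost in 4 of 9 fits without 1 library (adjusted p up to 0.129), and the Sox2 call against Taz KO also in 4 (up to 0.101). With the block 3 of the 5 fell in double KO against control, beside 28.1% of all tested genes. Against Taz KO 1 rose and 2 fell with the block, beside 16.8% and 25.6%.

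**Figure D4:**
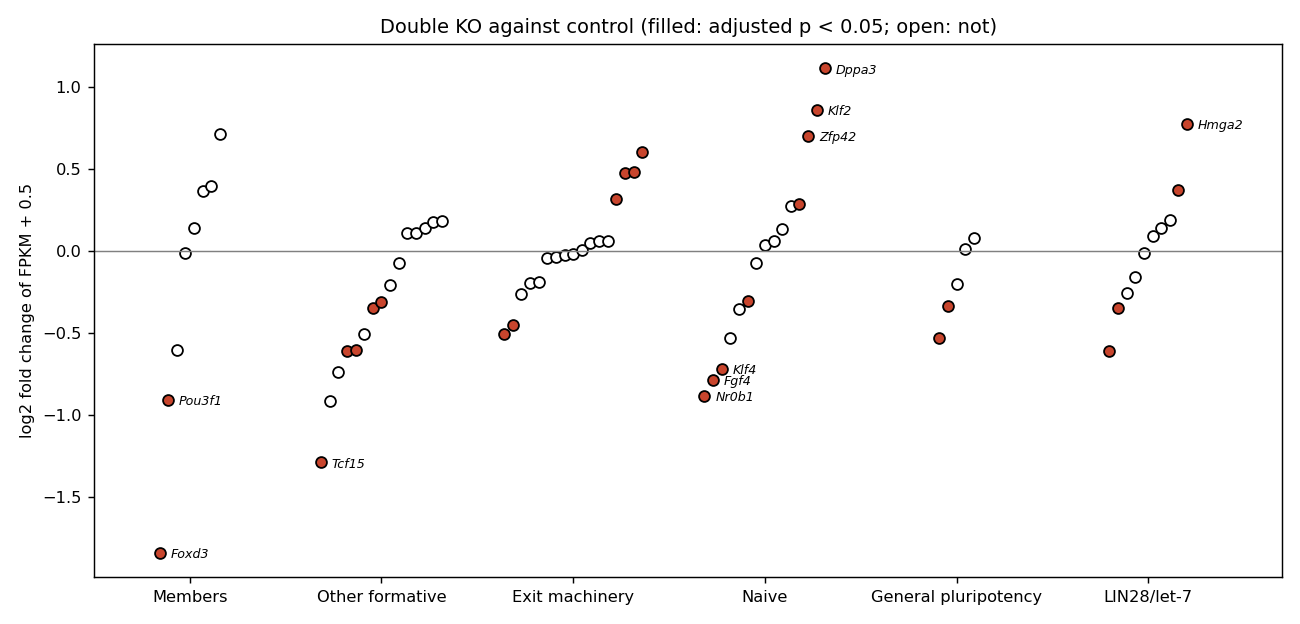
Log2 fold change of FPKM + 0.5 in double KO against control for the tested genes of 6 lists, each point a gene and filled where the adjusted p is under 0.05. The other formative genes have 5 filled points below 0 and none above, while the naive list has 4 on each side. Over all tested genes, 12.9% were called lower and 12.4% higher.

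Markers of other lineages were given beside these values, since Sox3, Zic2, Pou3f1 and Lef1 are also used by neural and mesodermal cells. Of 8 neural markers 2 were tested and 1, Nes, rose in double KO against control (1.85, adjusted p = 3.25e-05). The other, Tubb3, averaged 19.0 ± 7.75 FPKM in control and 28.3 ± 14.3 in double KO. It was not called (0.48, adjusted p = 0.531, and 0.0185 with the block). Sox1, also on this list, fell among genes from a mean of 0.1 FPKM (-1.06, adjusted p = 0.00661). The 8 summed to 16.6 to 31.7 FPKM in control and 26.9 to 51.0 in double KO, with Dcx at 0 in all libraries and Pax6 at most 0.0107 FPKM as group means. Of 5 neural crest markers only Tfap2a was tested, and it rose by 0.56 (adjusted p = 0.0306). The list summed to 2.07 to 2.59 FPKM in control and 2.92 to 4.15 in double KO. Most of that was Tfap2a, at 1.93 ± 0.135 and 3.12 ± 0.727 FPKM by group mean. Mesoderm and streak markers summed to 11.7 to 14.7 and 12.6 to 20.5 FPKM, and primitive endoderm markers to 2.20 to 3.09 and 2.04 to 3.77. Of these 6 and 7 markers, 3 and 1 entered the main test, and none was called without the block. Among genes from a mean of 0.1 FPKM, Sox7 of the primitive endoderm list fell in double KO against control (-0.65, adjusted p = 0.0207). Its means were 0.343 FPKM in control and 0.033 in double KO. No other mesoderm, streak or primitive endoderm marker was called in double KO against control in that fit. The 1 tested fibroblast marker, Thy1, had a difference of 0.87 (adjusted p = 0.202, and 0.00267 with the block). Their part in the members' values was not tested.

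Over the 9 libraries, the genes whose log2 values were most like those of Foxd3 were Gtsf1l (Pearson r = 0.99), 2900011O08Rik (0.986) and Mars (0.986). For Pou3f1 they were Gprc5a (0.996), Ism2 (0.992) and Idh2 (0.992). Each r is a description over libraries that share 3 genotypes and replicate numbers. Ism2, for example, was at 4.02, 3.61 and 0.796 FPKM in control, Taz KO and double KO by group mean, and 2900011O08Rik at 4.96, 3.04 and 0.643.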

How the data were processed

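The authors deposited 1 table of FPKM values for 38940 genes in 9 libraries. Per the submitters' processing notes, TopHat2 2.1.1, HTSeq 0.6.1, DESeq2 and the build mm10 were used, without roles; annotation release and strand setting: not given in the sources used here. Whole reads were recovered as the smallest whole numbers, within 0.001, for all 24621 genes above 0. They may be too low by a common divisor. The worth of 1 read followed median-of-ratios size factors within 4.14e-05%.

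Limma 3.58.1 in R 4.3.3 was fitted to log2(FPKM + 0.5) with group means over 9 libraries, 6 residual degrees of freedom and a variance trend, two-sided, with Benjamini-Hochberg adjustment over 11674 genes, and was tested on simulated data. Deviations correlated at 0.192 to 0.711 in the 9 pairs of same-numbered libraries and -0.688 to 0.394 in the other 18 pairs, so the numbers were taken as pairing, from the values alone. Comparisons with control share its 3 libraries. Named were all 10 members, family relatives, up to 4 called genes per list and direction, and the 3 genes most like Foxd3 or Pou3f1. Utf1, Fgf15, Sfrp2, Jarid2, Thy1, Tubb3, Pax6 and Sox7 were singled out after their values were seen. Alternatives were other pseudocounts (0.1 and 1), filters, scalings, limma-voom on recovered reads, the 2 groups alone, the block and leaving out each library. Values of 2 listed genes are not reported here. The members and lists were chosen with earlier results of these data known. Positions are from GENCODE M21 (GRCm38, the same assembly as mm10).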

Additional observations from a re-analysis of the deposited data

How the results depend on the processing

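Without 1 library in turn, calls ranged from 1505 to 3568 genes in double KO against control (2948 with all; 1505 and 1921 without control 1 and 3, and 1830 without double KO 3). Taz KO against control gave 11 to 230 genes (150 with all; 11, 22 and 84 without control 1, 2 and 3, 70, 97 and 17 without Taz KO 1, 2 and 3, and 72 and 230 without double KO 1 and 2). Double KO against Taz KO gave 482 to 2648 (1620 with all; 1024 without control 1, 482, 2648 and 623 without Taz KO 1, 2 and 3, and 759 and 627 without double KO 1 and 3). Member calls ranged from 2 to 3, stayed at 0, and ranged from 1 to 3. The replicate block gave 6112, 1381 and 4947 genes and 4, 1 and 6 members, and 6657, 1176 and 5067 genes and 5, 1 and 6 members from a mean FPKM of 0.1, a combination chosen after seeing the data, as were the fits of Fgf5 and Sox3 without 1 library. Fitting only the 2 groups compared gave 88 genes in Taz KO against control, and 635 genes and 1 member in double KO against Taz KO, where Pou3f1 had an adjusted p of 0.0605. Equal totals of recovered reads turned Lin28b in double KO against control to 0.034 and Sox4 in double KO against Taz KO to 0.037, neither called, and raised the share of calls that were higher in double KO against Taz KO from 46.3% to 58.4%. Log2 fold changes of uncalled members changed sign without 1 library: Lin28b in double KO against control (-0.054 to 0.05), Pou3f1 in Taz KO against control (-0.116 to 0.032), Fgf5 there from a mean FPKM of 0.1 (-0.061 to 0.061, with 0.021 without control 1), and Sox4 (-0.068 to 0.04) and Sall2 (-0.047 to 0.228) in double KO against Taz KO. Foxd3 was called in double KO against control under all 10 settings other than leaving out a library. Fgf5 and Sox3 rest on at most 32 and 20 reads per library, which limits their precision. The cause of these changes was not tested.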
